A study of Danio rerio with 6 samples.

Results

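FZNFs are zinc finger genes of carp-like fishes whose proteins join an N-terminal FiNZ domain to an array of C2H2 fingers. The genes described here are the FZNFs of low transcript level in the zebrafish embryo, chosen by a mean over the 6 libraries of 0.5 or more and under 3 CPM (the counts of a feature scaled to a library total of 1000000 counts). There were 118 such genes among 684 annotated FZNFs and 35218 features in the count tables. A further 166 FZNFs lay under 0.5 CPM and 385 at 3 CPM or more, and 15 FZNFs were left out by name, of which only g336 fell within the range. The level range was set on the mean over both injections, so a gene can enter it through the arm where it is higher. Levels are given below as a description and only the difference is tested. The names left out were fixed with results of these data known, and g336 was itself called lower by the test used below (log2 fold change -3.91): with it kept in, 6 members were called higher and 5 lower, with a median log2 fold change of 0.16. Nearest to the lower bound were g716 and g443 outside it (0.483 and 0.490 CPM) and g298 and g696 inside (0.512 and 0.529 CPM). Nearest to the upper bound were g636 and g323 inside (2.94 and 2.96 CPM) and g353 and g609 outside (3.01 and 3.02 CPM).

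Wild-type Tübingen zygotes received 4.5 ng of either a morpholino (MO) made to block translation of FZNF mRNAs or a scrambled control mixture of 25-nucleotide oligos, and whole embryos were collected at 6 h, the shield stage. Each arm had 3 poly(A) RNA-seq libraries, 1 per injection batch, with replicates 1 and 2 collected on 12 May and replicate 3 on 17 May. Each library pooled many embryos, so the spread is that between pools. The MO acts on translation, so these counts measure the mRNA and say nothing of the protein, and the study predicted that some FZNFs would not be bound.

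In general, C2H2 zinc finger proteins read DNA with a row of fingers, each contacting a few bases, and large families of them in mammals bind and silence transposable elements through cofactors that lay down heterochromatin. FZNF genes lie mainly in dense clusters on the long arm of chromosome 4, and their transcripts appear around the time the embryo's own genome is switched on. Members arose by repeated duplication and can be almost the same in sequence, which bears on how sequencing reads are divided between them.

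The start of the coding sequence is shown because it is the stretch against which the MO was designed. A coding sequence was held for 85 FZNFs, 12 of them of low level. The first 23 bases were the same in 10 of these 12 (g96, g120, g148, g180, g236, g256, g299, g553, g560 and g689), and in 50 of the 73 other FZNFs with a sequence. The other two, g317 and g367, differed from this start at 1 base each, which is in capitals.
common start: atggcgtttattaaagaggagag
g317: atgCcgtttattaaagaggagag
g367: atggcgtttattaaagaggagaA
These 12 genes encoded 5 to 12 matches to the C2H2 finger pattern (median 10), and the other 73 encoded 3 to 12 (median 9). Their coding lengths ran from 654 to 1284 bases. For the remaining low-level FZNFs no coding start was examined here.

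At such levels a gene rests on few reads. The mean count per library of the 118 members ran from 9.17 to 53.5, with a median of 26.9, in libraries of 16306069 to 20567549 counts. A total of 21 members had no count in at least 1 library, and 3 counts, the most that an observed 0 allows by counting error alone, correspond to 0.146 to 0.184 CPM. The members with 0 counts numbered 5, 1 and 1 in the FZNF MO libraries of pairs 1, 2 and 3, against 5, 8 and 7 in the scrambled MO libraries. Only 1 member, g313, was at 0 in every library of an arm. The embryo label held in the marker genes: 14 of 14 shield-stage markers were at 1 CPM or more, and no marker of differentiated tissues averaged that level (0 of 5 matched). The lowest chi-square per degree of freedom between libraries was 22.2, so none was taken as a repeat of another.

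The low-level FZNFs together took up 0.0145%, 0.0208% and 0.0258% of all counts in the libraries of pairs 1, 2 and 3 with the FZNF MO, against 0.0155%, 0.0173% and 0.0194% with the scrambled MO. These shares averaged 0.0204% ± 0.00566 with the FZNF MO and 0.0174% ± 0.00192 with the scrambled MO (SD, n = 3 each), so the arms overlapped and pair 1 ran opposite to the others. The ratio of FZNF MO to scrambled MO was 0.932, 1.20 and 1.33 in pairs 1, 2 and 3. As a part of all FZNF counts the members made up 2.03%, 2.03% and 2.12% in the FZNF MO libraries, against 3.27%, 3.47% and 3.50% in the scrambled MO libraries. That part (2.06% ± 0.0548 with the FZNF MO against 3.41% ± 0.125 with the scrambled MO, SD, n = 3 each) showed no overlap between the arms, while the members' own share of all counts did overlap. All FZNFs together had 146726, 167122 and 203170 counts with the FZNF MO, against 81461, 96476 and 96270 with the scrambled MO. The part thus also depends on the other FZNFs, and on the range and the names left out, which set the members. In pooled embryos, more cells that express a gene and more mRNA per cell cannot be told apart.

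Differences between the injections were tested by edgeR's quasi-likelihood test with the injection batch as a block and Benjamini-Hochberg adjustment over all 17804 features that passed the count filter, and calls needed an adjusted p under 0.05 with a log2 fold change of 0.32 or more in either direction. Of the 118 members, 115 were tested. Called higher in the FZNF MO embryos were 6 members, and called lower were 4, which is 8.70% of those tested, beside 5.45% of all features (3.27% called higher and 2.18% lower). Some of these called members averaged under 0.5 CPM in 1 arm (g313, g342, g216 and g447), so the other arm put them in the level range. The count filter, too, can be passed through 1 arm alone. Of the called members, only g231 and g414 would have passed it on either arm alone. The same test called 41.6% of the 385 FZNFs at 3 CPM or more (141 higher and 19 lower) and 0.735% of 4487 Ensembl genes in the range of 0.5 to 3 CPM (24 higher and 9 lower). The median log2 fold change of the members was 0.20 (quartiles -0.80 and 1.11), against 0.67 for FZNFs at 3 CPM or more, 0.012 for Ensembl genes of the members' range and -0.009 for all features. An unadjusted p under 0.05 was reached by 21 members that were higher and 14 that were lower, of 115 tested. Over all 17804 features it was reached by 1854 that were higher and 1645 that were lower, and over the 4487 Ensembl genes of the members' range by 177 and 145.

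These counts depended on which libraries set the level range and on the block. With the range taken over the scrambled MO libraries alone, 158 FZNFs qualified, 98 of them shared with the 118, and 30 of 150 tested were called higher and 1 lower (median log2 fold change 0.71). With the range taken over the FZNF MO libraries alone, an alternative added after the values were seen, 118 FZNFs qualified, 92 of them shared, and 2 of 107 tested were called higher and 10 lower (median -0.23). A range set on one arm admits genes whose level in the other arm lies outside it, so the balance of higher and lower calls belongs to the chosen range. Without the block, only g313 was called, and without pair 2 only g313 and g231. The share of all features called was lower there as well, at 0.809% without the block and 0.889% without pair 2.

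**Figure D1:**
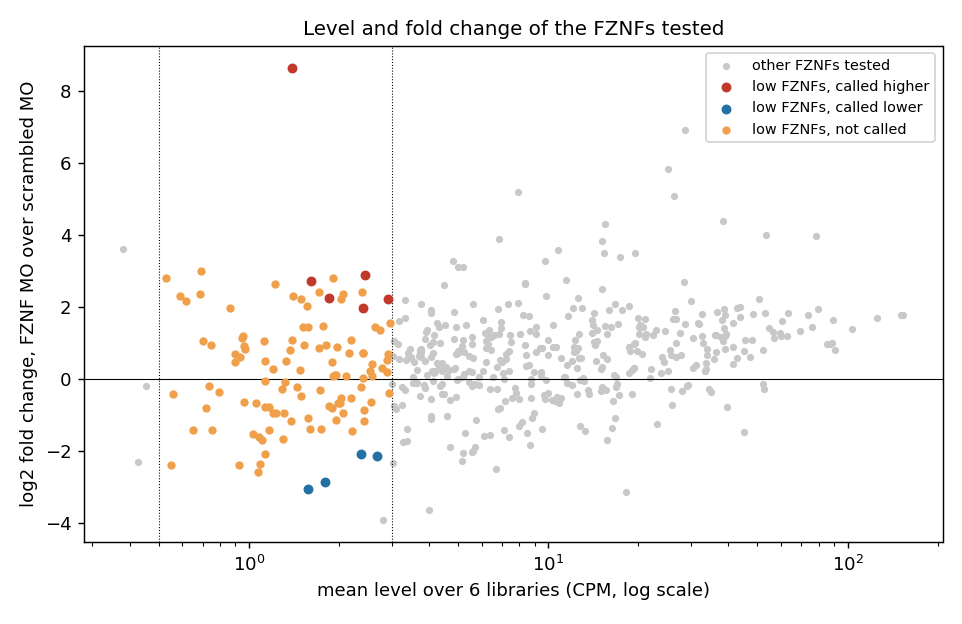
Mean level over the 6 libraries (CPM, log axis) against the fitted log2 fold change, FZNF MO over scrambled MO, for each FZNF tested. Dotted lines mark 0.5 and 3 CPM. The 115 low-level members spread to both sides of 0, with 6 called as higher (red) and 4 as lower (blue), and g313 stands highest at 8.63, a fitted value against an arm with no counts. Grey points are FZNFs outside the range or left out by name, among them g336, the grey point between the lines and below them all.

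The 6 genes called higher with the FZNF MO were g313, g62, g342, g724, g231 and g414, FZNF models known only by their numbers. Only g313 had no count at all in the scrambled MO embryos. This gene had 77, 27 and 50 counts with the FZNF MO in pairs 1, 2 and 3, against 0, 0 and 0 with the scrambled MO. Its level of 2.80 ± 1.06 CPM with the FZNF MO (SD, n = 3) was at least 16.7-fold higher than 3 counts per scrambled MO library (adjusted p = 0.0029, edgeR quasi-likelihood). With no count in the scrambled MO arm, g313 entered the level range and passed the count filter through the FZNF MO arm alone, so it had to differ, and its call is no support for the count of 6.

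A steady contrast was seen in g342, whose replicates spread little within either arm. It had 57, 56 and 37 counts with the FZNF MO in pairs 1, 2 and 3, against 7, 10 and 6 with the scrambled MO. Since g342 averaged under 0.5 CPM with the scrambled MO, its FZNF MO level put it in the range. The call of g342 is thus no support for the count of 6 either. The log2 fold change was 2.71 ± 0.58 (SE, edgeR adjusted p = 0.0189), and its 3 within-pair ratios lay between 1.68 and 1.95 on the log2 scale. By contrast, g62 ranged widely within both arms. It had 71, 23 and 126 counts with the FZNF MO, against 8, 0 and 32 with the scrambled MO. On the scrambled MO arm alone g62 would not have passed the count filter, so its call is no support for the count of 6. Its arms overlapped (1.41 CPM in FZNF MO replicate 2, 1.84 CPM in scrambled MO replicate 3), but the FZNF MO library was the higher in each pair, with within-pair log2 ratios of 2.03, 1.93 and 1.78, of which that of pair 2, against 0 counts, is set by the pseudocount of 0.5 CPM (log2 fold change 2.90 ± 0.63, SE, edgeR adjusted p = 0.0208).

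The other three genes called higher did not overlap between the arms. For g231, the counts were 136, 63 and 64 with the FZNF MO, against 12, 33 and 13 with the scrambled MO (log2 fold change 2.22 ± 0.49, SE, edgeR adjusted p = 0.0216). For g724, they were 81, 49 and 37 with the FZNF MO, against 6, 13 and 16 with the scrambled MO (2.25 ± 0.59, edgeR adjusted p = 0.0485). For g414, they were 40, 101 and 58 with the FZNF MO, against 10, 20 and 21 with the scrambled MO (within-pair log2 ratios 1.17, 2.12 and 1.21, edgeR adjusted p = 0.0331). The highest FZNF MO library was replicate 1 for g231 and g724 and replicate 2 for g414, so no single library carried all of them. On the scrambled MO arm alone g724 would not have passed the count filter, so its call is no support for the count of 6. With other normalisation factors g724 passed from one side of the threshold to the other (adjusted p = 0.0503 with RLE factors and 0.0502 with TMM factors from Ensembl genes). Without pair 1, edgeR no longer called g342, g724 and g231 (adjusted p = 0.0512, 0.252 and 0.108), and without pair 2 it no longer called g342, g724, g62 and g414 (0.186, 0.275, 0.0675 and 0.393). Without pair 3 all 6 were called. Of all features, 3.98% were called without pair 1, 0.889% without pair 2 and 12.0% without pair 3.

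The 4 genes called lower with the FZNF MO were g216, g447, g341 and g535, and none overlapped between the arms. For g216, the counts were 4, 2 and 12 with the FZNF MO, against 21, 71 and 61 with the scrambled MO (log2 fold change -3.07 ± 0.69, SE, edgeR adjusted p = 0.0249). For g447, they were 12, 2 and 10 with the FZNF MO, against 93, 40 and 35 with the scrambled MO (-2.85 ± 0.62, edgeR adjusted p = 0.0216). Both fell to under 1 CPM in each of the 3 FZNF MO libraries. Both also averaged under 0.5 CPM with the FZNF MO, so their scrambled MO level put them in the range. The calls of g216 and g447 are thus no support for the count of 4.

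For g341, the counts were 7, 22 and 24 with the FZNF MO, against 90, 60 and 80 with the scrambled MO (-2.14 ± 0.55, edgeR adjusted p = 0.0448). For g535, they were 22, 6 and 24 with the FZNF MO, against 74, 53 and 74 with the scrambled MO (-2.07 ± 0.48, edgeR adjusted p = 0.0281). On the FZNF MO arm alone neither g341 nor g535 would have passed the count filter, as each fell short in its lowest library (7 and 6 counts). Their calls are thus no support for the count of 4 either. Without pair 2 none of the 4 was called by edgeR (adjusted p = 0.273 for g216, 0.165 for g447, 0.121 for g341 and 0.223 for g535), and without pair 1 only g216 was. With TMM factors from Ensembl genes g341 missed the threshold (adjusted p = 0.0516). The gene numbers of g341 and g342 follow each other, and these genes moved in opposite directions: g341 was lower and g342 higher in each of 3 pairs, a choice picked out after their values were seen.

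**Figure D2:**
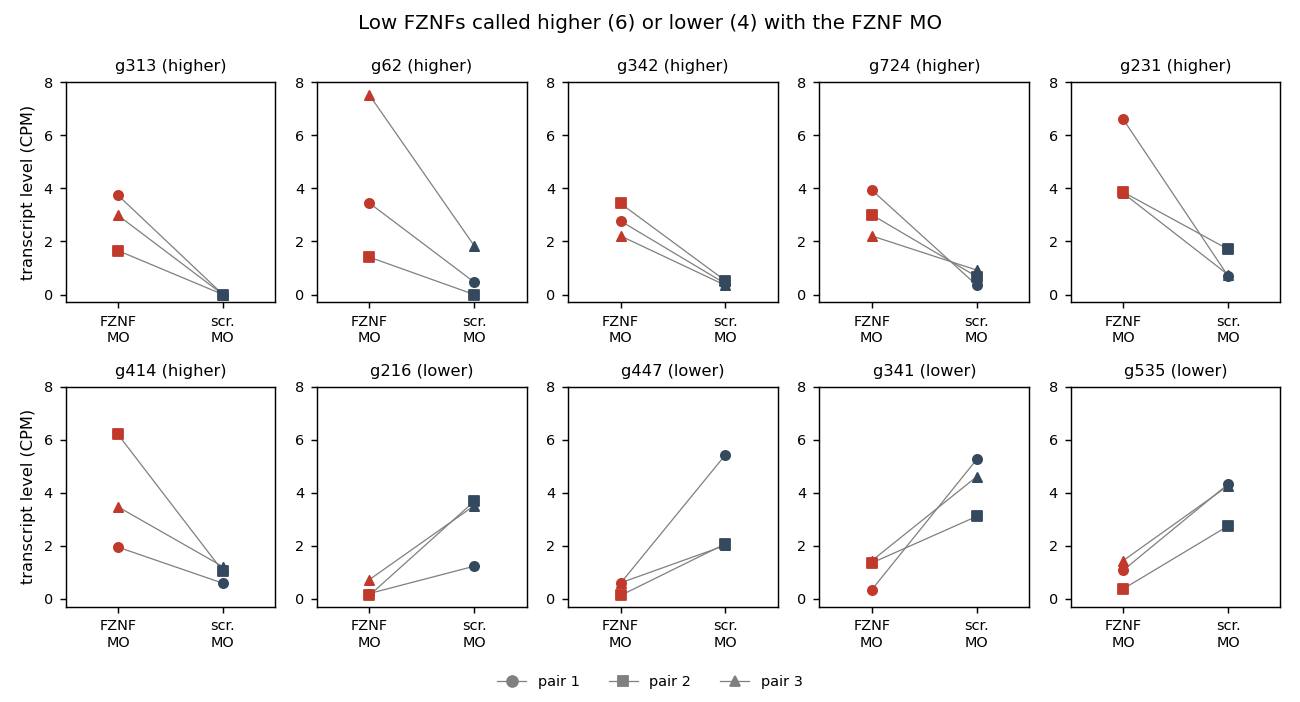
Transcript level (CPM) of the 10 low-level FZNFs called, in FZNF MO libraries (left, red) and scrambled MO libraries (right, dark), with lines joining the libraries of an injection pair. In each panel all 3 lines run the same way, and only g62 has FZNF MO and scrambled MO libraries that overlap.

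Non-overlap of the arms was more common than a call. All 3 FZNF MO libraries lay above or below all 3 scrambled MO libraries in 34 of the 115 members tested (29.6%, 20 higher and 14 lower), beside 16.9% of all features tested (7.99% higher and 8.95% lower) and 12.1% of Ensembl genes in the same range. Among the 34 were g313, g342, g548, g689, g216, g317, g447 and g619, which averaged under 0.5 CPM in the arm where they were lower. The other arm put them in the range, so their non-overlap is no support for the 29.6%. Nor is that of g724, g341, g535, g91, g180, g47 and g367, which would not have passed the count filter on their lower arm alone. The 29.6% is thus no result about the members apart from how they were chosen. The Ensembl genes were set by the same range and filter. Of these 34 members, 9 were called, and 15 that were higher and 10 that were lower with the FZNF MO were not. The nearest to the threshold was g689, one of the genes with the common coding start, with 38, 56 and 29 counts with the FZNF MO, against 8, 11 and 6 with the scrambled MO (log2 fold change 2.30 ± 0.62, SE, edgeR adjusted p = 0.0527). Next came g91, with 85, 59 and 40 counts with the FZNF MO, against 12, 4 and 23 with the scrambled MO (2.36 ± 0.64, adjusted p = 0.0549). The member nearest the upper level bound, g323, had 85, 55 and 93 counts with the FZNF MO, against 41, 14 and 28 with the scrambled MO (1.57 ± 0.43, adjusted p = 0.0579). Each was high in all 3 FZNF MO libraries but did not pass the test. On the scrambled MO arm alone neither g689 nor g91 would have passed the count filter, so their non-overlap is no support for a difference.

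Further members past an unadjusted p under 0.05 showed how far single libraries reached at these counts. In g180 the scrambled MO libraries disagreed, with 34, 4 and 1 counts, against 73, 51 and 42 counts in the FZNF MO libraries (log2 fold change 2.81 ± 0.78, adjusted p = 0.0596). In g47 the counts were 70, 85 and 44 with the FZNF MO, against 13, 45 and 0 with the scrambled MO (2.41 ± 0.72, adjusted p = 0.0773). In g226 they were 22, 47 and 71 with the FZNF MO, against 0, 11 and 27 with the scrambled MO (2.41 ± 0.71, adjusted p = 0.0756). Of these, g226 alone overlapped between the arms. Among those that were lower, g619 had 6, 7 and 5 counts with the FZNF MO, against 43, 35 and 21 with the scrambled MO (-2.37 ± 0.73, adjusted p = 0.0835). DESeq2 with the same block called 11 members higher, with g91, g180, g226, g323, g367 and g47 added, and the same 4 lower. It gave no adjusted p for g313, and it called 7.55% of all features. Genes g91, g47, g226 and g619 were picked out after their values were seen. On the scrambled MO arm alone g91, g180, g226, g367 and g47 would not have passed the count filter. Their DESeq2 calls are thus no support for the count of 11. Since g619 averaged under 0.5 CPM with the FZNF MO, its scrambled MO level put it in the range and through the filter.

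The fitted differences of the members were wide and so were their errors. An absolute log2 fold change of 1 or more was fitted for 56 of 115 members (48.7%, 33 higher and 23 lower), for 45.2% of FZNFs at 3 CPM or more and for 22.1% of Ensembl genes of the members' range. The median SE was 0.65 for the members, 0.28 for FZNFs at 3 CPM or more and 0.67 for those Ensembl genes. The biological coefficient of variation that edgeR fitted had a median of 0.455 in the members, 0.240 in FZNFs at 3 CPM or more and 0.467 in the Ensembl genes. Within the members, edgeR called 0 of 24 tested genes between 0.5 and 1 CPM (1 higher and 2 lower at an unadjusted p under 0.05, median SE 1.01). It called 5 of 57 between 1 and 2 CPM (3 higher, 2 lower, median SE 0.65) and 5 of 34 between 2 and 3 CPM (3 higher, 2 lower, median SE 0.49), beside 5.45% of all features. DESeq2 also called 0 in the lowest band. However, it gave no adjusted p for members there such as g96, g148, g299, g317, g560 and g616, which thus could not be called. In the lowest band, g548 had 29, 27 and 11 counts with the FZNF MO, against 2, 4 and 2 with the scrambled MO, and was not called (95% interval of the log2 fold change 1.23 to 4.77, edgeR adjusted p = 0.079). Gene g548 was picked out after its values were seen, and it passed the count filter through the FZNF MO arm alone.

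The 3 members with the narrowest bound on a change were g102, g587 and g300. For g587, the counts were 40, 39 and 35 with the FZNF MO, against 42, 27 and 42 with the scrambled MO, and the log2 fold change was 0.078, with a 95% interval from -0.86 to 1.01. For g102, the counts were 55, 26 and 49 with the FZNF MO, against 22, 58 and 52 with the scrambled MO (log2 fold change 0.039, 95% interval -0.92 to 0.996). For g300, they were 49, 28 and 70 with the FZNF MO, against 32, 37 and 55 with the scrambled MO (0.22, 95% interval -0.60 to 1.04). Even for these genes a change of up to about 1 on the log2 scale lay inside the interval, which is approximate and somewhat narrow. Close to the upper bound, g636 was also near no change, with 35, 40 and 61 counts with the FZNF MO, against 53, 69 and 55 with the scrambled MO (-0.38 ± 0.40, edgeR adjusted p = 0.66).

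The injection pairs were not alike. Each ratio is the log2 of CPM + 0.5 with the FZNF MO over CPM + 0.5 with the scrambled MO, so low values are drawn towards 0. Over the 118 members the median ratio was -0.15 in pair 1, 0.25 in pair 2 and 0.27 in pair 3, and 55, 68 and 71 members were higher with the FZNF MO in those pairs. FZNFs at 3 CPM or more had medians of 0.18, 0.80 and 0.89. The groups were split by a mean over both arms, so a gene that rises with the FZNF MO can pass from the lower group to the upper. With the range over the scrambled MO libraries alone, the median fitted log2 fold change of the lower group was 0.71. The lower medians of the members are thus no result apart from the split. Ensembl genes of the members' range had medians of 0.023, -0.007 and -0.037. The number of pairs in which the FZNF MO library was the higher was 3 for 36 members, 2 for 30, 1 for 26 and 0 for 26. Among the 115 members tested, 34 were higher and 26 lower in all 3 pairs, beside 3590 and 3998 of all 17804 features tested.

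**Figure D3:**
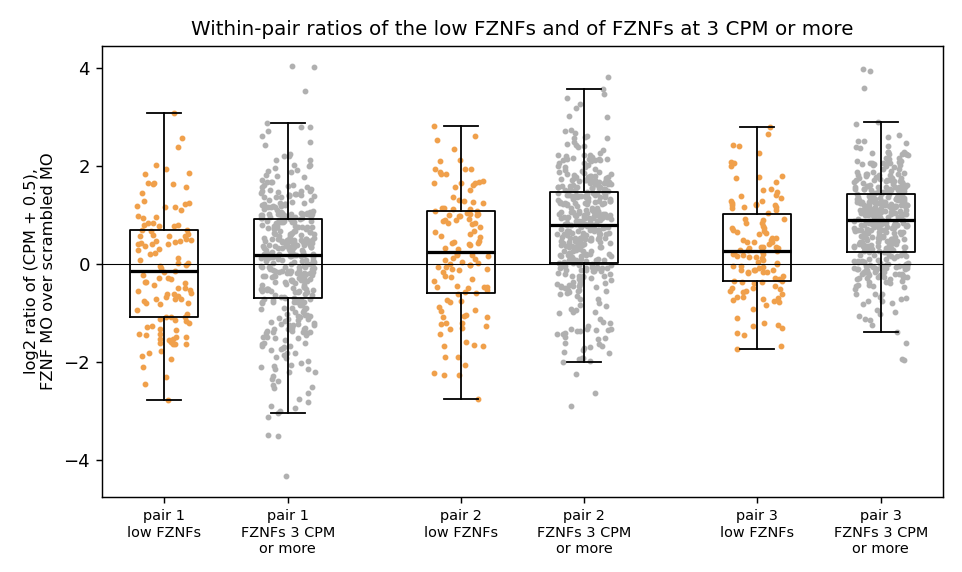
Log2 ratio of (CPM + 0.5), FZNF MO over scrambled MO, in each injection pair, for the 118 low-level FZNFs (orange) and the 385 tested FZNFs at 3 CPM or more (grey). Points are genes, boxes show quartiles with the median in bold, and whiskers reach the farthest gene within 1.5 times the box length. The low-level medians lie at -0.15, 0.25 and 0.27 in pairs 1, 2 and 3, below the grey medians of 0.18, 0.80 and 0.89. The groups were split by a level taken over both arms, so this order depends on the split.

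Pair 3, the only one collected on 17 May, was opposite in sign to pairs 1 and 2 in 13 members, pair 1 to the others in 23 and pair 2 in 20. The clearest cases for pair 3 went both ways. For g365, the counts were 4, 13 and 48 with the FZNF MO, against 26, 48 and 28 with the scrambled MO, with log2 ratios of -1.54, -1.20 and 0.67. For g123, they were 0, 14 and 49 with the FZNF MO, against 18, 29 and 27 with the scrambled MO, with ratios of -1.63, -0.56 and 0.74. Both genes were low in the first 2 pairs and higher in pair 3.

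The reverse was seen in g514, with 62, 56 and 26 counts with the FZNF MO, against 17, 28 and 44 with the scrambled MO (log2 ratios 1.24, 1.01 and -0.56). It was also seen in g595, with 43, 35 and 16 counts with the FZNF MO, against 11, 16 and 27 with the scrambled MO (log2 ratios 1.18, 0.995 and -0.50). None of the 4 genes was called. Since 1 pair was collected on the later day, the day and the pair cannot be told apart.

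Some members owed most of their counts to 1 library. The share of the 6-library total in the highest library was 63.3% in g391, 65.5% in g529 and 55.7% in g616. For g391, the counts were 88, 23 and 0 with the FZNF MO, against 28, 0 and 0 with the scrambled MO, so it was high in both libraries of pair 1 and absent from both of pair 3 (log2 fold change 2.64 ± 1.09, SE, edgeR adjusted p = 0.207). For g529, they were 3, 5 and 36 with the FZNF MO, against 7, 4 and 0 with the scrambled MO, and this gene was not tested. For g616, they were 5, 10 and 12 with the FZNF MO, against 0, 59 and 20 with the scrambled MO (-0.65 ± 1.04, adjusted p = 0.781). The other members not tested were g298 (23, 8 and 5 counts with the FZNF MO, against 7, 9 and 5 with the scrambled MO) and g559 (36, 7 and 30 counts with the FZNF MO, against 2, 0 and 5 with the scrambled MO, with no overlap between the arms). Since g559 averaged under 0.5 CPM with the scrambled MO, its FZNF MO level put it in the range. Its non-overlap is thus no support for a difference. The highest value over the 6 libraries was that of FZNF MO replicates 1, 2 and 3 for 17, 14 and 32 members, and that of their scrambled MO partners for 15, 25 and 15.

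Each of the 12 low-level FZNFs with a coding sequence had a near copy, 98.0% to 99.9% identical to it over the aligned coding bases (median 99.2%). The study had picked the genes with a sequence as groups of recent duplicates, so a near copy followed from that choice. Only the sequences held in the same set were compared, so closer copies may exist among the other FZNFs. Identity to the nearest sequence ran from 83.7% (g177) to 100% (g50) in the other FZNFs with a sequence. The reads were counted in a mode that divides those matching several places, so the split between such copies is uncertain, and its part in the values below was not tested. The pair g148 and g642 differed at 1 aligned position. The low-level gene, g148, had 26, 16 and 12 counts with the FZNF MO, against 1, 21 and 0 with the scrambled MO (log2 fold change 2.37 ± 1.21, SE, edgeR adjusted p = 0.31). Its copy g642, left out here by name, had 814, 439 and 365 counts with the FZNF MO, against 33, 15 and 32 with the scrambled MO (4.30 ± 0.30, adjusted p = 1.2e-05).

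A similar gap was found between g96 and g280, which differed at 5 aligned positions. The counts of g96 were 24, 25 and 9 with the FZNF MO, against 8, 30 and 6 with the scrambled MO (0.62 ± 0.74, edgeR adjusted p = 0.70). Those of g280, also left out by name, were 1706, 614 and 557 with the FZNF MO, against 16, 18 and 43 with the scrambled MO (5.08 ± 0.39, adjusted p = 3e-05). In scrambled MO replicate 2 the low-level gene thus had more counts than its copy, and in FZNF MO replicate 1 far fewer. The level range held g148 and g96 under 3 CPM, and g642 and g280 were left out by name with results of these data known. Both gaps thus followed in part from the choice. The difference between copies was not itself tested.

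Where both copies were of low level, g120 and g180, they differed at 1 aligned position. The counts of g120 were 17, 32 and 25 with the FZNF MO, against 3, 16 and 25 with the scrambled MO (1.06 ± 0.72, edgeR adjusted p = 0.46), and those of g180 are given above. The scrambled MO libraries ran in opposite directions in these copies, with g180 highest and g120 lowest in replicate 1 and the reverse in replicate 3. Another low-level gene, g256, differed from g180 at 23 aligned positions, and its counts were 24, 16 and 31 with the FZNF MO, against 12, 17 and 21 with the scrambled MO (0.51 ± 0.65, adjusted p = 0.72).

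The genes with a start differing at 1 base lay on opposite sides of 0, and neither was called. In g317 the counts were 4, 4 and 7 with the FZNF MO, against 33, 15 and 35 with the scrambled MO, with no overlap (-2.38 ± 0.79, edgeR adjusted p = 0.111). In g367 they were 44, 67 and 60 with the FZNF MO, against 15, 3 and 23 with the scrambled MO, also with no overlap (2.21 ± 0.67, adjusted p = 0.0791). Their nearest copies were g171, at 57, 145 and 355 counts with the FZNF MO, against 129, 175 and 167 with the scrambled MO, and g473, at 1436, 233 and 216 counts with the FZNF MO, against 66, 26 and 41 with the scrambled MO (3.40 ± 0.31, adjusted p = 8.44e-05). Another gene nearest to g171, g560, kept the common start and had 12, 1 and 11 counts with the FZNF MO, against 11, 25 and 22 with the scrambled MO (-1.41 ± 0.95, adjusted p = 0.454). Since g317 averaged under 0.5 CPM with the FZNF MO, its scrambled MO level put it in the range. On the scrambled MO arm alone g367 would not have passed the count filter. Non-overlap in g317 and g367 is thus no support for a difference. Whether the changed bases alter MO binding was not tested.

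The remaining genes with the common start were not called either. The counts of g236 were 7, 2 and 21 with the FZNF MO, against 14, 48 and 20 with the scrambled MO (-1.53 ± 0.92, edgeR adjusted p = 0.398), while its copy g346 was called higher (1.76 ± 0.24, adjusted p = 0.00124). Those of g299 were 14, 13 and 23 with the FZNF MO, against 3, 38 and 7 with the scrambled MO (0.70 ± 0.90, adjusted p = 0.724). Those of g553 were 19, 48 and 32 with the FZNF MO, against 20, 9 and 17 with the scrambled MO (1.08 ± 0.71, adjusted p = 0.445), and its copy g397 was called higher (1.69 ± 0.18, adjusted p = 0.000202). For g689 the fold change of 2.30 was close to that of its copy g203, which was called (2.24 ± 0.20, adjusted p = 6.98e-05) on 1002, 1706 and 1641 counts with the FZNF MO, against 281, 324 and 313 with the scrambled MO. As stated above, g689 was in the range through its FZNF MO level.

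**Figure D4:**
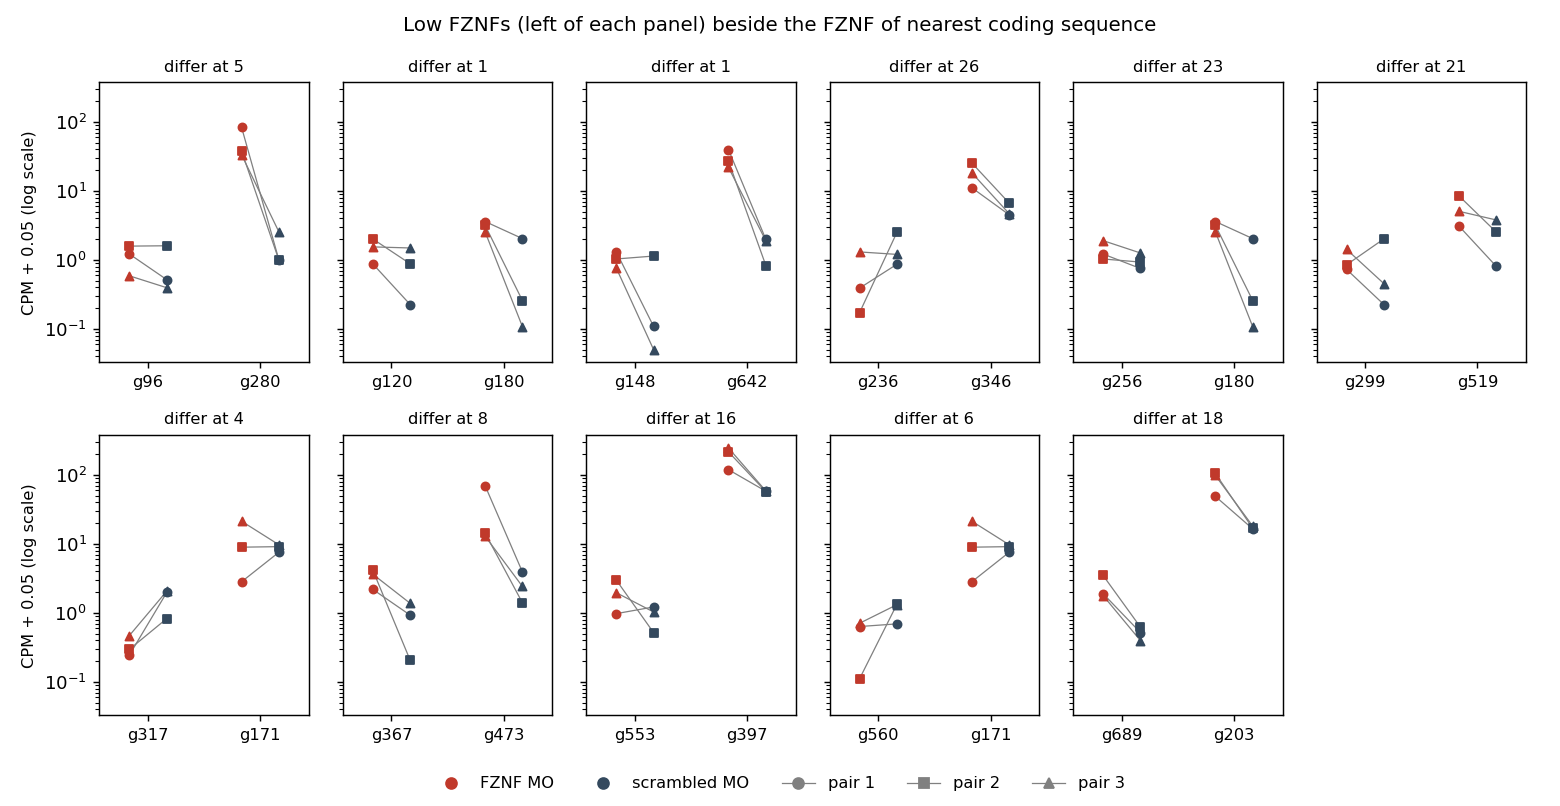
Transcript level (CPM + 0.05, log axis) of low-level FZNFs with a coding sequence (left of each panel) and of the FZNF nearest to each among the coding sequences held in its set (right). The number of aligned positions at which they differ is given above. FZNF MO libraries are red and left of the scrambled MO libraries, and lines join injection pairs. Copies that differ at 1 position can lie far apart, as g148 (1.26, 0.98 and 0.72 CPM in FZNF MO replicates 1, 2 and 3) and g642 (39.6, 26.9 and 21.8 CPM) do. The members were chosen for a low level and g642 was left out by name, so this gap followed in part from the choice.

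Many C2H2 zinc finger repressors of mammals act through shared silencing partners, and whether FZNF proteins use them was not examined here. Of a list of 31 cofactor and heterochromatin genes, 22 could be matched by symbol and all 22 were tested: edgeR called 2 higher and 0 lower, as did DESeq2 (4 higher and 3 lower at an unadjusted p under 0.05), beside 3.27% and 2.18% of all features, with a median log2 fold change of 0.096. Those called were trim33, a relative of the KRAB cofactor TRIM28 in mammals (215, 219 and 174 CPM with the FZNF MO, against 127, 132 and 141 CPM with the scrambled MO; log2 fold change 0.61 ± 0.12, edgeR adjusted p = 0.0123), and morc3b, a MORC-family ATPase linked in mammals to chromatin silencing (115, 46.7 and 65.2 CPM with the FZNF MO, against 43.8, 21.6 and 59.3 CPM with the scrambled MO; 0.89 ± 0.21, adjusted p = 0.0275). For morc3b the arms overlapped. Without the block neither was called (adjusted p = 0.0992 for trim33 and 0.433 for morc3b), nor without pair 2 (0.27 and 0.309), and morc3b was not called without pair 1 (0.0706). The next by p, atf7ip, a partner of the histone methyltransferase SETDB1, and uhrf1, which guides maintenance DNA methylation, were not called (-0.37 ± 0.12, adjusted p = 0.109, and 0.39 ± 0.13, adjusted p = 0.117).

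FZNF transcripts change quickly with stage, so stage markers are given beside them. Of 7 blastula genes that decline through gastrulation, 1 was called higher and 0 lower by edgeR and by DESeq2 (1 and 1 at an unadjusted p under 0.05, median log2 fold change -0.041), beside the same 3.27% and 2.18% of all features. It was pou5f3, a factor of genome activation (1767, 1094 and 1038 CPM with the FZNF MO, against 860, 701 and 916 CPM with the scrambled MO; 0.63 ± 0.14, edgeR adjusted p = 0.0206). Of 7 tested genes that rise through gastrulation, edgeR called 3 lower and 0 higher, and DESeq2 2 and 0 (4 and 0 at an unadjusted p under 0.05, median -0.92), and the median within-pair log2 ratio was -0.88, -0.97 and -0.14 in pairs 1, 2 and 3. They were tbx6, a T-box factor of presomitic mesoderm (1.26, 3.68 and 1.91 CPM with the FZNF MO, against 8.87, 17.4 and 4.55 CPM with the scrambled MO; -2.10 ± 0.35, adjusted p = 0.00473), myf5, a muscle-determination factor (-1.49 ± 0.32, adjusted p = 0.0194), and msgn1, a regulator of paraxial mesoderm (-0.92 ± 0.21, adjusted p = 0.0286), which DESeq2 did not call (adjusted p = 0.184). Of the 14 shield-stage markers, vent and szl, both active on the ventral side, were called higher (0.74 ± 0.13, adjusted p = 0.00837, and 0.61 ± 0.15, adjusted p = 0.0333) and 0 were called lower by edgeR or by DESeq2 (3 higher and 1 lower at an unadjusted p under 0.05). Without the block, and without pair 2, none of pou5f3, tbx6, myf5, msgn1, vent and szl was called by edgeR (adjusted p from 0.144 to 0.741), and without pair 1 pou5f3, myf5 and szl were not (0.0562, 0.0717 and 0.0896). The study compared its samples with published ones of nearby stages and reported that they clustered with those of shield stage. The part of stage in the values of the low-level FZNFs was not tested here.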

How the data were processed

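The deposited values were raw counts per feature, which the authors made by mapping strand-specific 150-bp paired reads to GRCz11 with STAR 2.7.5a, keeping multimapping reads, and counting with TEcount (TEtranscripts, multimapper mode) over the genes of Ensembl, AUGUSTUS models of FZNFs and repeats, after FastQC 0.11.9. For the strand setting and the release of Ensembl, nothing was given in the sources used here. Counts were tested as deposited in edgeR 4.0.16 (R 4.3.3, limma 3.58.1), with TMM factors, filterByExpr by condition, batch and condition as terms, and SEs derived from the F statistic. The 95% intervals are a normal approximation from these SEs, so they run somewhat narrow for this test. The replicate number was taken as the injection batch, as the Methods describe paired injections in triplicate. Deviations from the arm means correlated at 0.45, 0.33 and 0.24 within pairs, and at -0.32 to 0.06 between other libraries, over all features tested. Over the low-level FZNFs they were 0.33, 0.027 and 0.33 within pairs, and -0.38 to 0.11 between others. The deviations within an arm cancel out, so a positive value within a pair forces a negative one elsewhere. The p-values measure spread between pools of embryos. Named genes were those called with the same direction in 3 of 3 pairs, those at the level bounds, the 3 with the narrowest bound on a change (absolute log2 fold change plus the reach of its 95% interval), those at 0 in an arm or with most counts in 1 library, those with a coding sequence, 4 with pair 3 opposite and up to 4 per gene list. Members and lists were chosen with earlier results of these data known. Coding sequences came from the study's supplementary sequence sets, 1 per clade, and were compared within a set by global pairwise alignment (Biopython 1.88), with gaps counted as differences. The test was tried on simulated data. Alternatives included no block, other factors, DESeq2 1.42.0, other count filters (none, or 20 counts in 3 libraries), no fold threshold, each pair left out, and other level ranges.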

Additional observations from a re-analysis of the deposited data

How the results depend on the processing

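With no replicate block, 1 low-level FZNF was called higher and 0 lower by edgeR (14 and 9 at an unadjusted p under 0.05), and with DESeq2 and the block 11 were called higher. Of all features, 0.809% were called with no block and 7.55% by DESeq2, against 5.45% in the main fit. Without a count filter 19 were called higher and 6 lower (7.10% of all features were called), and with the level range over the scrambled MO libraries alone 30 and 1 (median 0.71). Over the FZNF MO libraries alone, which was chosen after the values were seen, 2 were called higher and 10 lower (median -0.23). With each pair left out in turn, 2 to 9 were called higher and 0 to 4 lower, and the median ran from 0.12 to 0.32: without pair 2, 2 and 0 (20 and 11 at an unadjusted p under 0.05), and without pair 1, 7 and 1. The share of all features called was 3.98%, 0.889% and 12.0% without pairs 1, 2 and 3. The 10 named calls kept their direction under all 9 or 10 alternatives run for each, and 26 of these 99 comparisons no longer passed the threshold. They had been chosen for the same direction in 3 of 3 pairs, so their direction could hardly change. For each of them the alternative with no fold threshold repeats the main fit and could not lose the call. Among uncalled members, g102 turned to -0.013 without the block. With each pair left out, g102 ran from -0.45 to 0.52, g587 from -0.25 to 0.29, g616 from -1.50 to 0.57 and g123 from -2.38 to 0.11. DESeq2 gave no adjusted p for g313 and for 14 other named members. Mean counts of 9.17 to 53.5 per library give a counting error (median coefficient of variation 0.19 among members tested) below the spread between libraries (median 0.56 with the FZNF MO and 0.48 with the scrambled MO).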
